A study of Mus musculus with 30 samples.

Results

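The collagen genes of the mouse aorta are described here, taken as every array probe whose gene name is Col, a number, the letter a and a number. The rule found 68 of 55657 probes, which stand for 43 of 34728 gene names. Of these, 11 genes encode fibrillar chains, 8 encode chains of the basement membrane and its border zone, 10 encode network-forming chains, 9 encode fibril-associated chains and 5 encode transmembrane or other chains. The measurements come from 30 Agilent expression arrays of a single colour, each holding total RNA of 1 aortic sample, with 3 arrays to a group. The 10 groups are WT (wild type) and uMT aortas, all of strain label C57BL/6, taken with no operation (pre) or at day 7 or day 42 after the abdominal aorta was treated from outside. Saline (sham) or 0.5 M CaCl2, an agent used to model aortic aneurysm, was applied. The uMT line carries a disrupted immunoglobulin mu heavy chain gene throughout the body and lacks mature B cells. The labels call the tissue of every sample abdominal aortic aneurysm, pre and sham aortas included, and give no age or sex, and nothing in them says whether replicates were separate animals. The p-values therefore measure the spread between these samples, which may be technical.

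Collagens are proteins whose chains wind into a long helix. Fibrillar collagens (types I, II, III, V, XI, XXIV and XXVII) assemble into fibrils. Types I and III make up most of the load-bearing fibres of the adventitia and media, and types V and XI lie inside heterotypic fibrils and limit their diameter. Network-forming collagens build beaded filaments (type VI), hexagonal lattices (type VIII, a product of vascular smooth muscle and endothelial cells) or anchoring fibrils (type VII). The FACIT collagens, for fibril-associated collagens with interrupted helices (types IX, XII, XIV, XVI, XIX, XX and XXII), sit on fibril surfaces and link them to other matrix. Type IV collagen is the mesh of the basement membrane around each smooth muscle cell and under the endothelium, and types XV and XVIII lie in the adjoining zone.

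Levels are log2 processed signal minus that of each array's own 75th percentile probe, so a negative level is below that percentile, and levels of different probes cannot be set against each other. A change is a mean log2 level minus another, ± its standard error in limma, which pools the spread of all 10 groups. A gene was called when its Benjamini-Hochberg adjusted p over 23268 gene names was under 0.05. The 8 contractile smooth muscle markers, which define the medial cell type of this tissue, were above background in every group. Of the arrays, WT sham day 42 replicate 2 stood apart. It had 36.6% of probes well above background against 42.4% to 61.8% on the others, its 75th percentile was 36.1 intensity units against 82.3 to 428, and its mean correlation with its group was 0.726. It alone lay on its slide and scan day, and counts of calls below are given with and without it. Slide as a random block, used below with all arrays, took a slide correlation of 0.782, which was -0.0687 without this array. For CaCl2 against sham, the block without it called 23 and 14 collagen genes in WT at days 7 and 42, and 22 and 25 in uMT. No share of all genes, and no count for other gene lists, is given for that fit, so these counts are no result about collagen genes. With that array left out and no block, 18.4% and 12.3% of all genes were called in WT at days 7 and 42. In uMT these shares were 9.82% and 15%. The 5 slides nearly follow the groups. In uMT at both days CaCl2 and sham arrays share no slide, and slide and treatment cannot be told apart there. For WT at day 7 they share none either, but WT sham day 42 replicates 1 and 3 lie on the slides of both groups. In WT at day 42 the CaCl2 arrays share a slide with sham replicate 3. With slide as a fixed term, 0 of 37 collagen genes were called in WT at day 7 (0.331% of all genes). There the slides are linked only by WT sham day 42 replicates 1 and 3, 1 array on each. In WT at day 42 that fit sets the CaCl2 arrays against sham replicate 3 alone, so its calls are not counted.

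A probe was tested where it was well above background on all 3 arrays of at least 1 group, and 37 of the 43 collagen genes passed. These were all 11 fibrillar genes, all 8 basement membrane genes, 9 of 10 network genes, 8 of 9 FACIT genes and 1 of 5 others, Col23a1. Of the 6 that did not pass, Col9a3, Col13a1 and Col17a1 were above background on 0 of 30 arrays, Col25a1 and Col28a1 on 2 each, and Col10a1, the collagen of hypertrophic cartilage, on 6. A gene that passes this filter through 1 group can be near background in the others, so counts below are over the tested genes only. Col2a1 passed through CaCl2 groups alone, so its rises with CaCl2 are not independent of the filter. The counts below include them.

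The starting points of 4 members with different courses are printed to show the DNA next to them. The windows are the 120 bases before the annotated RefSeq start on GRCm38.p6, read 5′ to 3′ in the direction of the gene. Col11a1 (chr3:114030420-114030539, plus strand) and Col5a3 (chr9:20815068-20815187, minus strand) rose with CaCl2. Col3a1 (chr1:45311418-45311537, plus strand) encodes type III collagen, and Col4a4 (chr1:82586850-82586969, minus strand) encodes a basement membrane chain that fell. Capitals mark the GC box GGGCGG, which reads CCGCCC on the opposite strand. They also mark the CCAAT box, which reads ATTGG on the opposite strand, and the TATA box, searched as TATAAA with opposite strand TTTATA.
Col11a1: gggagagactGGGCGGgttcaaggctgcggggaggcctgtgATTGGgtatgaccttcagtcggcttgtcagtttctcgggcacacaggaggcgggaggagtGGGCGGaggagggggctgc
Col5a3: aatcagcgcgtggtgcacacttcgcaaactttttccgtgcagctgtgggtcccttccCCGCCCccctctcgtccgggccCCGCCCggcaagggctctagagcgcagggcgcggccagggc
Col3a1: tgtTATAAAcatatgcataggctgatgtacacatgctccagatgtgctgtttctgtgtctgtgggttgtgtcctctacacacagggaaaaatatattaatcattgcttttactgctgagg
Col4a4: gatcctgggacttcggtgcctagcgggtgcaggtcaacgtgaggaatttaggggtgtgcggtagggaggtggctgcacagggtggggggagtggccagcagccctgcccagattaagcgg
Col11a1 holds GGGCGG 110 and 19 bases before the start and ATTGG 79 bases before it. Col5a3 holds CCGCCC 63 and 41 bases before its start, Col3a1 holds TATAAA 117 bases before it, and these letters are not in the Col4a4 window. Of the 43 genes, 35 matched the RefSeq promoters, with 38 windows of 250 bases. GGGCGG lay in 57.9% of these against 32.7% of all 32851 windows, CCAAT in 34.2% against 33.8%, and TATAAA in 13.2% against 12.4%. Col4a1 and Col4a2 start head to head on chromosome 8, at 11312826 on the minus strand and 11312805 on the plus strand. A match to letters is a description and not a binding site.

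The classes were set side by side first, to see whether CaCl2 moved the collagen genes as 1 group. At least 10 of 11 fibrillar genes lay above 0, and 7 of 8 basement membrane genes below it, in each of the 4 comparisons with sham. The fibrillar median change was 0.85 in WT at day 7, 1.40 in WT at day 42, 1.09 in uMT at day 7 and 1.29 in uMT at day 42. The basement membrane median was -1.44, -0.63, -0.43 and -0.83 in the same order. Medians over all 23268 genes were 0.09, 0.05, -0.02 and -0.04. Network genes had medians of 0.52, 1.49, 0.99 and 1.12 and FACIT genes of 0.47, 0.39, 0.37 and 0.67. Without WT sham day 42 replicate 2 the WT day 42 medians were 1.22 for fibrillar, -1.26 for basement membrane, 0.77 for network and 0.71 for FACIT genes. These are descriptions of the lists, which have no test of their own here.

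**Figure D1:**
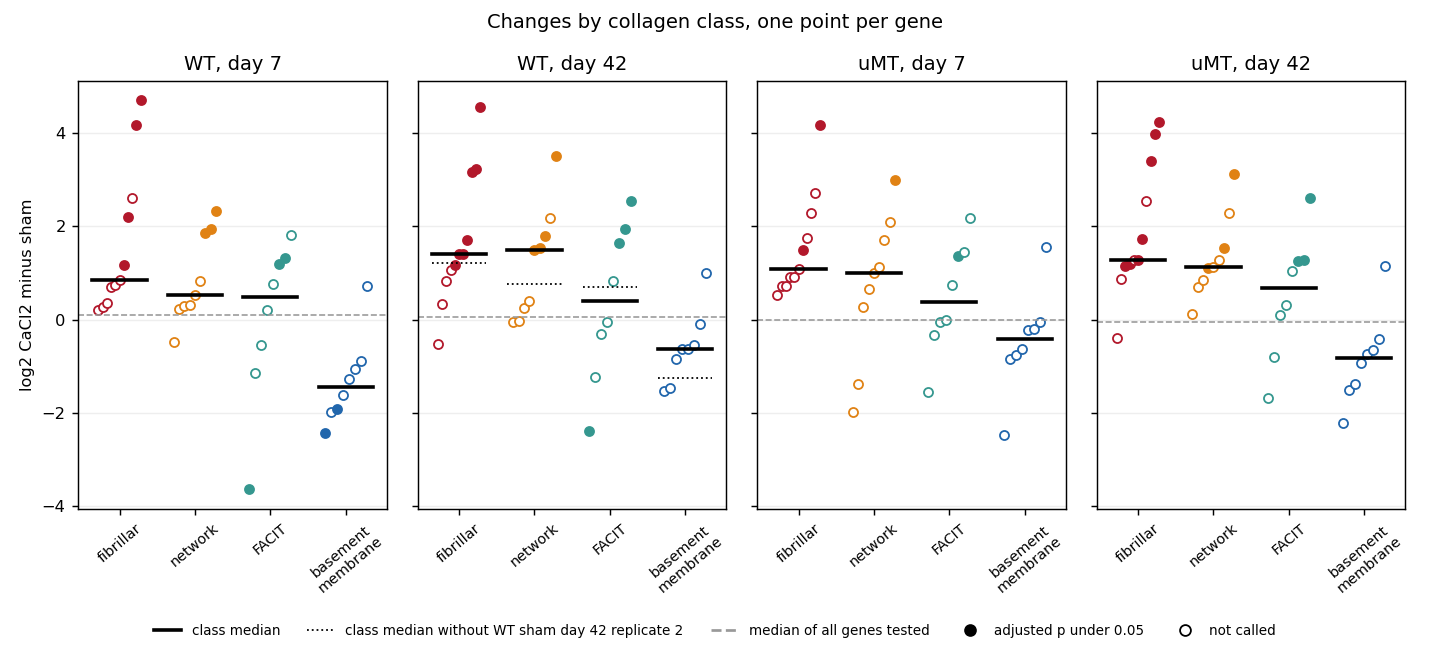
Log2 change with CaCl2 against sham for each tested collagen gene (points), by class, in the 4 comparisons, with the class median as a line, dotted for WT at day 42 without WT sham day 42 replicate 2, the median of all genes dashed and filled points for adjusted p under 0.05. Fibrillar medians lie between 0.85 and 1.40, and basement membrane medians between -1.44 and -0.43.

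In WT aortas 7 days after CaCl2, 9 of 37 collagen genes rose and 3 fell. Among all genes 2.98% rose and 3.61% fell, 6.59% in all. Fibrillar genes supplied 4 of the rises (Col11a1, Col2a1, Col5a3 and Col5a2), network genes 3 (Col8a2, Col7a1 and Col8a1) and FACIT genes 2 (Col9a2 and Col16a1). The falls were the basement membrane genes Col4a3 and Col4a4 and the FACIT gene Col19a1. All 11 fibrillar genes had a change above 0, from 0.20 (Col1a2) to 4.70 (Col11a1), while 1 of 8 basement membrane genes did, Col15a1. With WT sham day 42 replicate 2 left out, which is in neither group but enters the pooled spread, 17 of 37 were called (18.4% of all genes) and the 12 were all among them. Gained were Col12a1 and Col24a1, higher, and Col22a1, Col4a5 and Col4a6, lower. Col11a1 alone was called once slide was a random block (adjusted p = 0.048, 0.228% of all genes), and leaving out 1 array of either group left 2 to 6 calls: 4 without any of the sham replicates, and 6, 3 and 2 without CaCl2 replicates 1, 2 and 3. Among all genes 45.2% of calls were rises, and 55.6% when the percentile was taken over probes detected on all arrays.

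At day 42 in WT, 14 of 37 collagen genes rose and 1 fell, against 6.79% and 3.59% of all genes (10.4% in all). Rises came from 7 of 11 fibrillar, 4 of 9 network and 3 of 8 FACIT genes, and from 0 of 8 basement membrane genes. The fall was again Col19a1. Here the array that stands apart is in the sham group: without it 9 rose and 3 fell (12.3% of all genes called), and 9 calls were shared. The 6 calls lost were Col5a1, Col6a1, Col6a3, Col6a5, Col8a1 and Col12a1, so that no network gene was called, with adjusted p from 0.053 (Col6a5) to 0.152 (Col6a1). Gained were Col20a1, Col4a1 (-1.24, adjusted p = 0.0344) and Col4a3 (-2.34, adjusted p = 0.0365), the last pair lower. On the shared slide, all 3 CaCl2 arrays lay above sham replicate 3 for 9 of 11 fibrillar genes and below it for 7 of 8 basement membrane genes, against 33.3% of all genes above and 31.4% below. For network genes 6 of 9 lay above and for FACIT genes 5 of 8. These counts, like the fit with slide as a fixed term, rest on 1 sham array. The differences from it were 1.38 for Col1a1, 1.52 for Col3a1, -1.07 for Col4a1 and -1.47 for Col4a2. A random block for slide kept 9 of the 15 calls (4.58% of all genes): Col1a1, Col2a1, Col3a1, Col5a2, Col5a3, Col11a1, Col14a1, Col16a1 and Col19a1. The same number, 9, were called without CaCl2 replicate 2.

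In uMT aortas at day 7, 4 of 37 collagen genes rose and 0 fell, against 0.503% and 0.391% of all genes (0.894% in all). They were the fibrillar genes Col11a1 and Col5a1, the network gene Col8a2 and the FACIT gene Col16a1. All 11 fibrillar genes again had a change above 0. CaCl2 replicate 1 lay far from replicates 2 and 3 for many members. With WT sham day 42 replicate 2 left out, 12 were called (9.82% of all genes), the 4 among them. Gained were Col12a1, Col5a2, Col6a1, Col6a3, Col7a1, Col8a1 and Col9a2, higher, and Col4a3, lower. There was 1 call without any of the sham replicates or without CaCl2 replicate 1, 9 were called without CaCl2 replicate 3, and 0 once slide was a random block (0% of all genes).

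At day 42 in uMT, 13 of 37 collagen genes rose and 0 fell, against 4.62% and 1.71% of all genes (6.33% in all). Again 7 of 11 fibrillar genes rose, with 3 of 9 network and 3 of 8 FACIT genes, and 0 of 8 basement membrane genes. All 9 network genes had a change above 0. Leaving out WT sham day 42 replicate 2 gave 22 calls (15% of all genes), 17 higher and 5 lower, with the 13 among them. The rises gained were Col6a1, Col8a1, Col8a2 and Col24a1, and the falls Col4a3, Col4a4, Col18a1, Col19a1 and Col23a1. Leaving out sham replicate 2 or 3 left 7 calls, CaCl2 replicate 1 left 6 and CaCl2 replicate 2 left 7. A random block for slide left none of the 37 called (0% of all genes). With the block and WT sham day 42 replicate 2 left out 25 were called, a count with no share of all genes beside it.

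**Figure D2:**
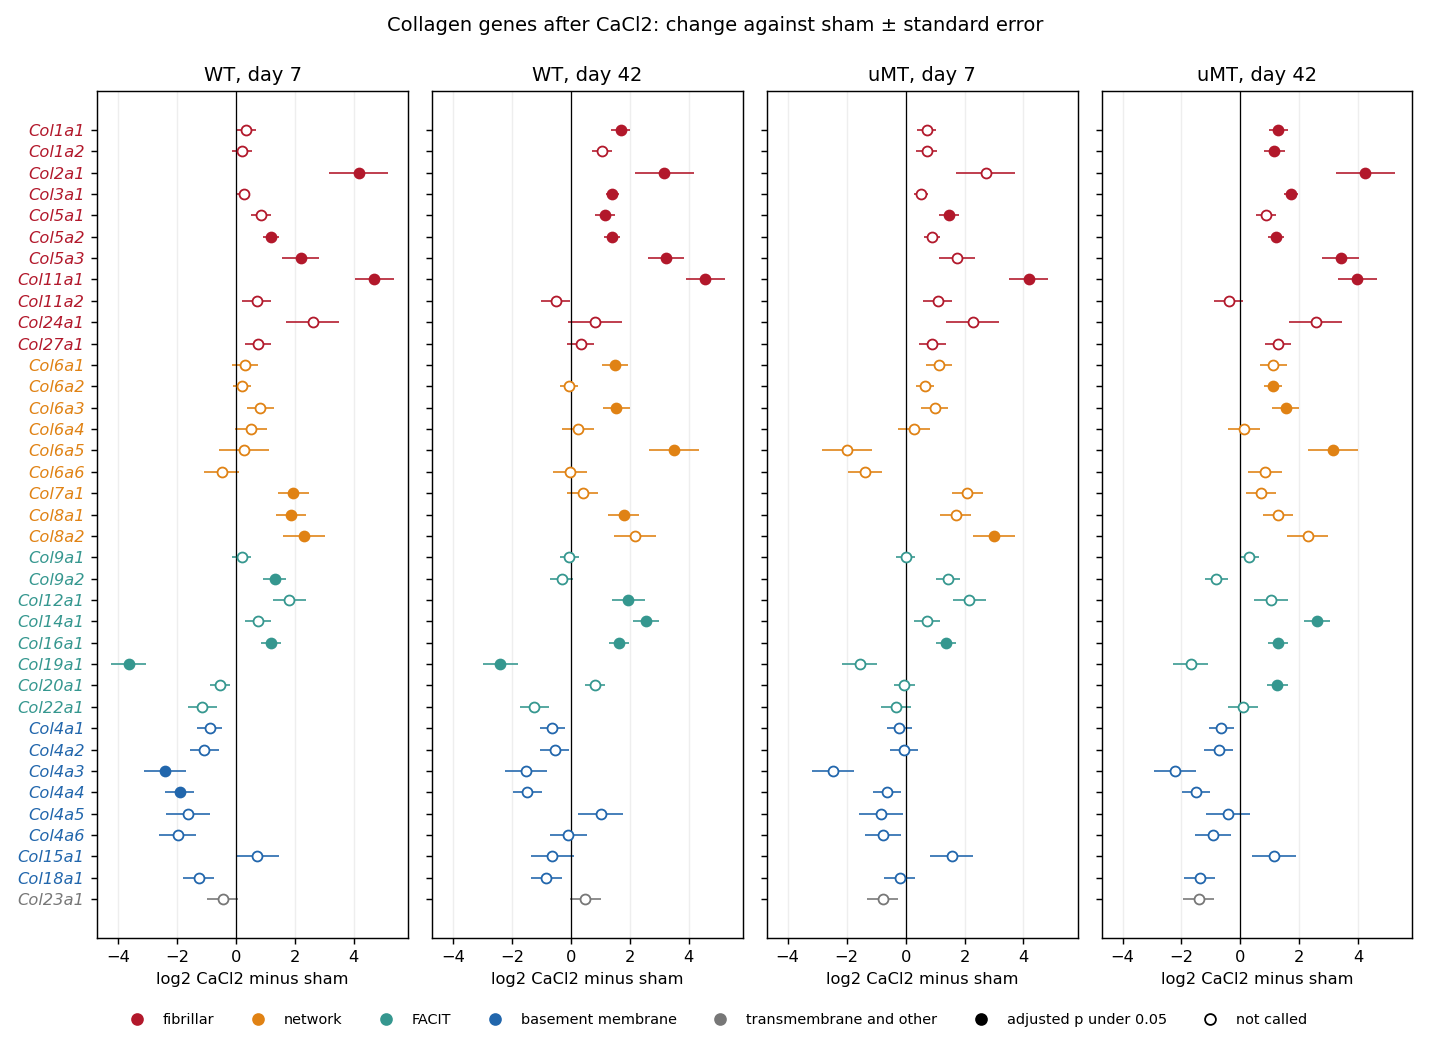
Log2 change with CaCl2 against sham for each of the 37 tested collagen genes (rows, by class) in the 4 comparisons, with the standard error as a bar and filled symbols for adjusted p under 0.05. Col11a1 and Col16a1 are filled in all 4, and no basement membrane gene is filled on the side above 0.

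Of the 14 genes that rose in WT at day 42, 10 (71.4%) also rose in uMT at day 42, which is 76.9% of the 13 there. These were Col1a1, Col2a1, Col3a1, Col5a2, Col5a3, Col6a3, Col6a5, Col11a1, Col14a1 and Col16a1. Of them, Col6a3 and Col6a5 lost the WT call without WT sham day 42 replicate 2, and none kept the uMT call with slide as a random block. The Col2a1 calls are not independent of the filter. The shares of all genes that rose in both genotypes, at day 42 or at day 7, or in all 4 comparisons are not given. These overlaps therefore have no background beside them, and are no result about collagen genes. At day 7 the genotypes shared 3 rises, 33.3% of the 9 in WT and 3 of the 4 in uMT. In all 4 comparisons 2 genes rose, Col11a1 and Col16a1, the latter by 2 of its 3 kept probes.

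Among the fibrillar genes, Col11a1 rose in all 4 comparisons. It encodes the alpha 1 chain of type XI collagen, a minor fibril component best known from cartilage. Its probe (chr3:113923185-113923244 on mm9, plus strand) was above background on none of the pre or sham day 42 arrays of either genotype. In WT the sham day 7 arrays read -3.35, -3.49 and -3.95 and the CaCl2 day 7 arrays 0.97, 0.38 and 1.96, so that every treated array lay above every sham array. The change was 4.70 ± 0.66, or 26.0-fold (adjusted p = 0.00083). At day 42 the WT sham arrays read -5.05, -3.63 and -5.63 and the CaCl2 arrays -0.56, 0.78 and -0.83, at least 7.46-fold higher (adjusted p = 0.000222). This fold is a bound, set against the lowest signal above background on the sham arrays.

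In uMT the same probe read -4.28, -4.42 and -3.70 on sham day 7 arrays and 2.39, -0.98 and -1.28 on CaCl2 day 7 arrays. Replicate 1 stood over 3 log2 units above its mates, and yet the groups did not overlap (change 4.18 ± 0.66, adjusted p = 0.00601). At day 42, sham arrays read -5.97, -5.17 and -5.00 and CaCl2 arrays -1.51, -1.02 and -1.69, at least 3.22-fold higher (adjusted p = 0.000768). Col2a1, the chain of type II collagen and the main collagen of cartilage, was above background on none of the sham day 7 arrays in either genotype.

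In WT, Col2a1 read -5.51, -5.68 and -6.22 with sham and -1.77, -1.41 and -1.74 with CaCl2 at day 7, at least 7.92-fold higher (adjusted p = 0.0143). At day 42 the WT groups overlapped, with sham at -3.20, -3.49 and -6.25 and CaCl2 at 0.06, -0.12 and -3.36 (change 3.17 ± 1.0, adjusted p = 0.0436). Here 1 of 3 sham arrays was above background. In uMT, CaCl2 day 7 arrays read -1.12, -4.27 and -5.58, only 1 of them above background, and the change of 2.72 ± 1.0 was not called (adjusted p = 0.183). At day 42 the uMT CaCl2 arrays read -0.13, -0.56 and 0.14 against -5.34, -3.04 and -4.88 with sham, at least 7.52-fold higher (adjusted p = 0.0115). The Col2a1 probe passed the filter through WT CaCl2 day 7, WT CaCl2 day 42 and uMT CaCl2 day 42 alone. Its calls in these comparisons are therefore not independent of the filter. It was above background on 12 arrays in all, so the filter of 15 arrays left it out.

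Types I and III, the bulk fibril collagens of the arterial wall, did not pass the test at day 7, and at day 42 their 3 genes rose in both genotypes except for Col1a2 in WT. Col3a1 read 8.73, 8.73 and 8.95 in WT sham day 7 arrays and 9.02, 9.21 and 8.96 after CaCl2, a change of 0.26 ± 0.23 (adjusted p = 0.583). At day 42 its sham arrays read 7.56, 7.12 and 7.17 and its CaCl2 arrays 8.58, 8.99 and 8.52. The change of 1.41 ± 0.23 was called (adjusted p = 0.000524), and was 1.33 without the array that stands apart. The CaCl2 arrays of day 42 lay near or below those of day 7, while all sham arrays of day 42 lay below all sham arrays of day 7.

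Sham arrays of uMT likewise differed in Col3a1 between the days: they read 8.67, 8.87 and 8.76 at day 7 and 7.42, 7.02 and 7.52 at day 42. CaCl2 arrays read 9.27, 9.10 and 9.51 at day 7 and 9.42, 9.10 and 8.60 at day 42. The changes were 0.52 ± 0.23 (adjusted p = 0.265) and 1.72 ± 0.23 (adjusted p = 9.04e-05). Pre arrays read 7.84, 7.68 and 8.06 in WT and 7.75, 8.26 and 7.75 in uMT, between the sham levels of the days.

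Col1a1, the alpha 1 chain of type I collagen, read 7.82, 7.80 and 8.08 with sham and 8.25, 8.40 and 8.09 with CaCl2 in WT at day 7 (change 0.35 ± 0.33, adjusted p = 0.621). At day 42 its sham arrays read 6.92, 5.33 and 6.60, the lowest being the array that stands apart, and its CaCl2 arrays 7.91, 8.29 and 7.74. The change was 1.70 ± 0.33 (adjusted p = 0.00212), and 1.22 (adjusted p = 0.00777) without that array. In uMT at day 42 sham arrays read 7.01, 6.40 and 7.24 and CaCl2 arrays 8.27, 8.30 and 7.93 (change 1.29 ± 0.33, adjusted p = 0.0184), and at day 7 the change was 0.71 (adjusted p = 0.302). Col1a2, its partner chain, rose by 1.15 ± 0.35 in uMT at day 42 (adjusted p = 0.0481), and its change of 1.06 in WT fell just outside the threshold (adjusted p = 0.0524). At day 7 Col1a2 changed by 0.20 in WT and 0.72 in uMT, neither called.

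The type V chains, which nucleate type I fibrils, differed in size of response. Col5a3 in WT read 1.67, 1.37 and 1.55 with sham and 3.33, 3.72 and 4.14 with CaCl2 at day 7 (change 2.20 ± 0.62, adjusted p = 0.0346). At day 42 it read -0.26, -2.74 and -1.63 with sham and 2.02, 2.38 and 0.68 with CaCl2 (change 3.24 ± 0.62, adjusted p = 0.00215; 2.63 without the array that stands apart). In both, the groups did not overlap. In uMT at day 42 sham arrays read 0.21, 0.06 and -0.12 and CaCl2 arrays 3.68, 3.55 and 3.14 (change 3.41 ± 0.62, adjusted p = 0.00175). At day 7 in uMT, CaCl2 arrays were spread from 1.78 to 5.05, and the change of 1.74 was not called (adjusted p = 0.171). Pre levels of Col5a3, from -1.11 to -0.06 in WT and from -1.34 to 0.17 in uMT, were near those of sham at day 42.

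Col5a2 rose by 1.17 ± 0.27 in WT at day 7 (adjusted p = 0.012), 1.40 ± 0.27 in WT at day 42 (adjusted p = 0.00225) and 1.20 ± 0.27 in uMT at day 42 (adjusted p = 0.00866). Its change of 0.91 in uMT at day 7 was not called (adjusted p = 0.103; 0.019 without WT sham day 42 replicate 2). Col5a1 rose by 1.48 ± 0.35 in uMT at day 7 (adjusted p = 0.0451) and by 1.17 ± 0.35 in WT at day 42 (adjusted p = 0.0324), where the groups overlapped and the call was lost without the array that stands apart (adjusted p = 0.121). The changes of Col11a2, Col24a1 and Col27a1, the other 3 fibrillar genes, were not called in any of the 4 comparisons and ran from -0.52 to 2.60. Col24a1, a gene singled out after its values were seen, held the upper end in WT at day 7. Without WT sham day 42 replicate 2 it was called there (adjusted p = 0.0369) and in uMT at day 42 (2.55, adjusted p = 0.0451). Its probe was above background on 13 of 30 arrays, and on all 3 arrays of only 2 groups. Its calls in every comparison of this report may therefore not be independent of the filter, and its sizes may rest on signal near background.

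**Figure D3:**
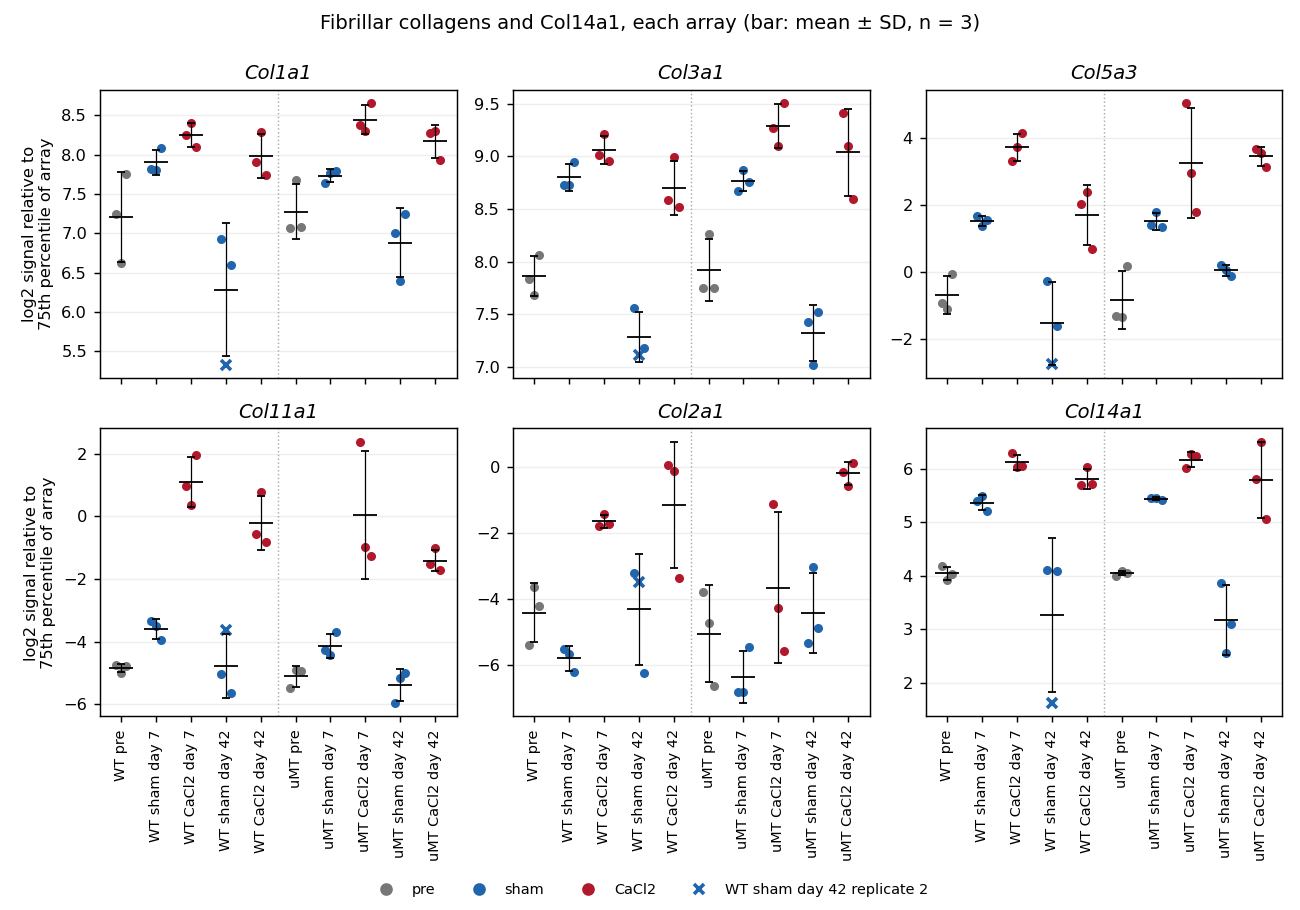
Level of 6 genes of fibrils and fibril surfaces on each of the 30 arrays (points; log2 processed signal minus that of the 75th percentile probe) with the group mean as a line and the SD as a bar, WT sham day 42 replicate 2 as a cross, by condition, WT and uMT side by side. Col11a1 and Col2a1 lie near background in pre arrays, Col3a1 is higher at sham day 7 than at sham day 42 in both genotypes, and uMT CaCl2 day 7 replicate 1 lies apart for Col11a1 and Col5a3.

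Network genes came in 3 structural kinds. Col8a1 and Col8a2, the chains of type VIII collagen of the vessel wall, read higher with CaCl2 in all 4 comparisons. Col8a1 rose by 1.87 ± 0.51 in WT at day 7 (adjusted p = 0.0299), from -0.05, -0.06 and 0.13 with sham to 1.88, 1.51 and 2.22. In WT at day 42 its change was 1.79 ± 0.51 (adjusted p = 0.0267) with all arrays and 1.06 (adjusted p = 0.133) without the array that stands apart. In uMT the changes of 1.70 and 1.27 were not called (adjusted p = 0.107 and 0.16), and both were once that array was left out (adjusted p = 0.0184 and 0.0432). Col8a2 rose by 2.32 ± 0.71 in WT at day 7 (adjusted p = 0.0497) and by 3.0 ± 0.71 in uMT at day 7 (adjusted p = 0.0451). A second Col8a2 probe changed by 0.95 and 1.36 there and was not called. At day 42 Col8a2 changed by 2.18 in WT (adjusted p = 0.0506; change 1.30, adjusted p = 0.22 without that array) and by 2.28 in uMT (adjusted p = 0.0549; 0.0158 without it).

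Of the 6 type VI genes, whose chains form beaded microfibrils beside cells, 3 were called at day 42 in each genotype and 0 at day 7. Without WT sham day 42 replicate 2, none was called in WT at day 42, Col6a1 and Col6a3 were called in uMT at day 7 (adjusted p = 0.0139 and 0.0435), and Col6a1 was added in uMT at day 42 (1.12, adjusted p = 0.00587). In WT at day 42 Col6a5 rose by 3.51 ± 0.85 (adjusted p = 0.0099), Col6a3 by 1.54 ± 0.45 (adjusted p = 0.0306) and Col6a1 by 1.49 ± 0.45 (adjusted p = 0.0333). For Col6a1 and Col6a3 the groups overlapped, because CaCl2 replicate 3 read 5.66 and 4.73, and without sham replicate 2, at 3.06 and 2.49, the changes were 0.63 and 0.75. In uMT at day 42 Col6a5 rose by 3.13 ± 0.85 (adjusted p = 0.0265), Col6a3 by 1.54 ± 0.45 (adjusted p = 0.0417) and Col6a2 by 1.11 ± 0.30 (adjusted p = 0.0293). Col6a3 read 4.73, 4.08 and 4.43 there with sham and 6.30, 5.89 and 5.69 with CaCl2, with no overlap. A second Col6a2 probe was not called in uMT at day 42 (change 0.86 ± 0.30, adjusted p over all kept probes = 0.0938). In WT at day 42 the first Col6a2 probe changed by -0.05 and the second by 0.79, neither called. Col7a1, the collagen of anchoring fibrils, rose by 1.95 ± 0.52 in WT at day 7 (adjusted p = 0.0254), from -1.99, -2.12 and -1.02 to 0.32, -0.04 and 0.44. In uMT at day 7 it changed by 2.10 (adjusted p = 0.0538; 0.012 without WT sham day 42 replicate 2). The remaining network genes, Col6a4 and Col6a6, changed by -1.38 to 0.84 with no call.

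The FACIT genes split in direction. Col14a1, the chain of type XIV collagen on fibril surfaces, rose at day 42 in both genotypes. In WT it read 4.10, 1.62 and 4.09 with sham and 5.69, 6.03 and 5.72 with CaCl2 (change 2.55 ± 0.44, adjusted p = 0.000947), and the change was 1.72 (adjusted p = 0.00119) without the array at 1.62. In uMT it read 3.87, 2.56 and 3.09 with sham and 5.81, 6.50 and 5.07 with CaCl2 (change 2.62 ± 0.44, adjusted p = 0.00087). At day 7 it changed by 0.75 and 0.73, neither called, and a second probe by -0.31 and -0.30, so its probes gave opposite signs.

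Col16a1, which is found with fibrils and microfibrils, rose in all 4 comparisons, by 1.19 ± 0.34 (adjusted p = 0.0335) and 1.63 ± 0.34 (adjusted p = 0.00326) in WT at days 7 and 42. In uMT it rose by 1.37 ± 0.34 (adjusted p = 0.0496) and 1.28 ± 0.34 (adjusted p = 0.0217). The day 7 arrays of WT read 4.99, 5.22 and 4.76 with sham and 6.34, 6.01 and 6.19 with CaCl2, and the groups did not overlap in any of the 4 comparisons. Another of its 3 kept probes was also higher in all 4. The remaining probe was called in none of them, with changes of 0.68 and -0.13 in WT and 1.31 and 0.65 in uMT at days 7 and 42. Col12a1, the type XII chain of tendon and loaded tissue, rose by 1.95 ± 0.57 in WT at day 42 (adjusted p = 0.0291), and the call was lost without the array that stands apart (1.30, adjusted p = 0.13). Its changes of 1.82 in WT and 2.17 in uMT at day 7 missed the threshold (adjusted p = 0.0555 and 0.0643) and passed it once that array was left out (adjusted p = 0.0171 and 0.0149). Col9a2, a type IX chain of cartilage fibrils, rose by 1.32 ± 0.39 in WT at day 7 (adjusted p = 0.0444) and changed by 1.44 in uMT at day 7 (adjusted p = 0.0765; 0.013 without that array). Col20a1 rose by 1.26 ± 0.35 in uMT at day 42 (adjusted p = 0.0293).

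Col19a1 was the FACIT gene that fell. In WT it read -2.67, -2.54 and -2.69 with sham at day 7, and after CaCl2 none of the arrays was above background at -5.06, -6.59 and -7.16, at least 4.12-fold lower (adjusted p = 0.00185). At day 42 it was at least 2.91-fold lower in WT (adjusted p = 0.0121), where 2 of 3 sham arrays were above background. In uMT the changes of -1.55 and -1.69 were not called (adjusted p = 0.203 and 0.0961), and the second was once WT sham day 42 replicate 2 was left out (adjusted p = 0.0466). A second Col19a1 probe was lower at day 42, with changes of -1.83 ± 0.48 in WT and -1.90 ± 0.48 in uMT (adjusted p over all kept probes = 0.0182 and 0.0203). It changed by -1.26 and -0.23 at day 7, neither called. The brightest probes of Col9a1 and Col22a1 ran from -1.24 to 0.31 with no call, but Col22a1 was called lower in WT at day 7 without that array (-1.14, adjusted p = 0.0336). Its second probe was lower there at -2.18 ± 0.44 (adjusted p over all kept probes = 0.00656) and higher in uMT at day 42 at 2.25 ± 0.44 (adjusted p over all kept probes = 0.00323).

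The basement membrane genes mostly had changes below 0, and 2 of them passed the test by the probe that stands for the gene, both in WT at day 7. In bulk tissue, fewer cells of a type and less RNA per cell cannot be told apart. Col4a4, which with Col4a3 and Col4a5 makes the type IV network that replaces the ubiquitous one in some basement membranes, read 0.85, 0.85 and 0.56 with sham and -0.65, -1.21 and -1.62 with CaCl2 in WT at day 7. It fell by 1.91 on the log2 scale (SE 0.48, adjusted p = 0.019), and its 3 probes gave -1.91 to -2.44. Col4a3 read -0.92, -1.05 and -1.43 with sham and -3.10, -3.83 and -3.75 with CaCl2, a fall of 2.43 ± 0.71 (adjusted p = 0.0416). At day 42 in WT the changes were -1.47 for Col4a4 (adjusted p = 0.0532) and -1.52 for Col4a3 (adjusted p = 0.167). Another Col4a4 probe was lower there, at -2.40 ± 0.71 (adjusted p over all kept probes = 0.0319).

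In uMT the same pair changed by -0.63 and -2.47 at day 7 and by -1.51 and -2.21 at day 42, none of them called. Col4a3 there read -5.89, -1.84 and -2.46 on the CaCl2 day 7 arrays against -0.88, -1.09 and -0.81 with sham, so that all 3 treated arrays lay below, replicate 1 far below. The adjusted p was 0.0909 at day 7 and 0.0662 at day 42. Both days gave a call for Col4a3, and day 42 for Col4a4, when WT sham day 42 replicate 2 was left out.

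Col4a1 and Col4a2, the paired chains of the ubiquitous type IV network, did not pass the test in any comparison of CaCl2 with sham on all arrays. Col4a1 read 4.94, 4.38 and 4.85 with sham and 4.01, 3.40 and 4.10 with CaCl2 in WT at day 7, with no overlap (change -0.89 ± 0.42, adjusted p = 0.237). In WT at day 42 it read 4.73, 2.75 and 4.40 against 3.98, 3.70 and 2.30 (change -0.63 ± 0.42, adjusted p = 0.319), where the sham array that stands apart is the low one. In uMT it changed by -0.22 and -0.66. Col4a2 changed by -1.07 and -0.55 in WT and by -0.05 and -0.73 in uMT.

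Col18a1, whose C-terminal piece is endostatin, changed by -1.27 and -0.84 in WT and by -0.21 and -1.38 in uMT, none called (adjusted p from 0.129 to 0.902), and the last was called without WT sham day 42 replicate 2 (adjusted p = 0.0482). Col4a5 and Col4a6, given because both were called lower in WT at day 7 without WT sham day 42 replicate 2, changed there by -1.61 ± 0.75 and -1.98 ± 0.62 (adjusted p = 0.224 and 0.0561 on all arrays). A second Col4a6 probe was lower in WT, at -1.38 ± 0.37 at day 7 and -1.14 ± 0.37 at day 42 (adjusted p over all kept probes = 0.0255 and 0.0481). The change of Col4a5 in WT at day 42 was 1.01, and -0.50 without that array. Col15a1, by its brightest probe, changed by 0.72 in WT at day 7, 1.57 in uMT at day 7 and 1.14 in uMT at day 42, and by -0.63 in WT at day 42, none called. Its sham value on the array that stands apart was 3.73 against 0.24 and -0.20 on its mates, and without that array the last change was 0.60. Its other 2 probes gave 0.17 and 0.06 in WT at day 7, 0.77 and 0.05 in WT at day 42, -0.02 and -0.10 in uMT at day 7, and 1.35 and 1.27 in uMT at day 42, none called. Of the transmembrane genes Col23a1 alone was tested, with changes of -1.41 to 0.50 and no call. The lowest of these, in uMT at day 42, was called without WT sham day 42 replicate 2 (adjusted p = 0.0419), and another Col23a1 probe was lower there at -1.22 ± 0.35 on all arrays (adjusted p over all kept probes = 0.0415).

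**Figure D4:**
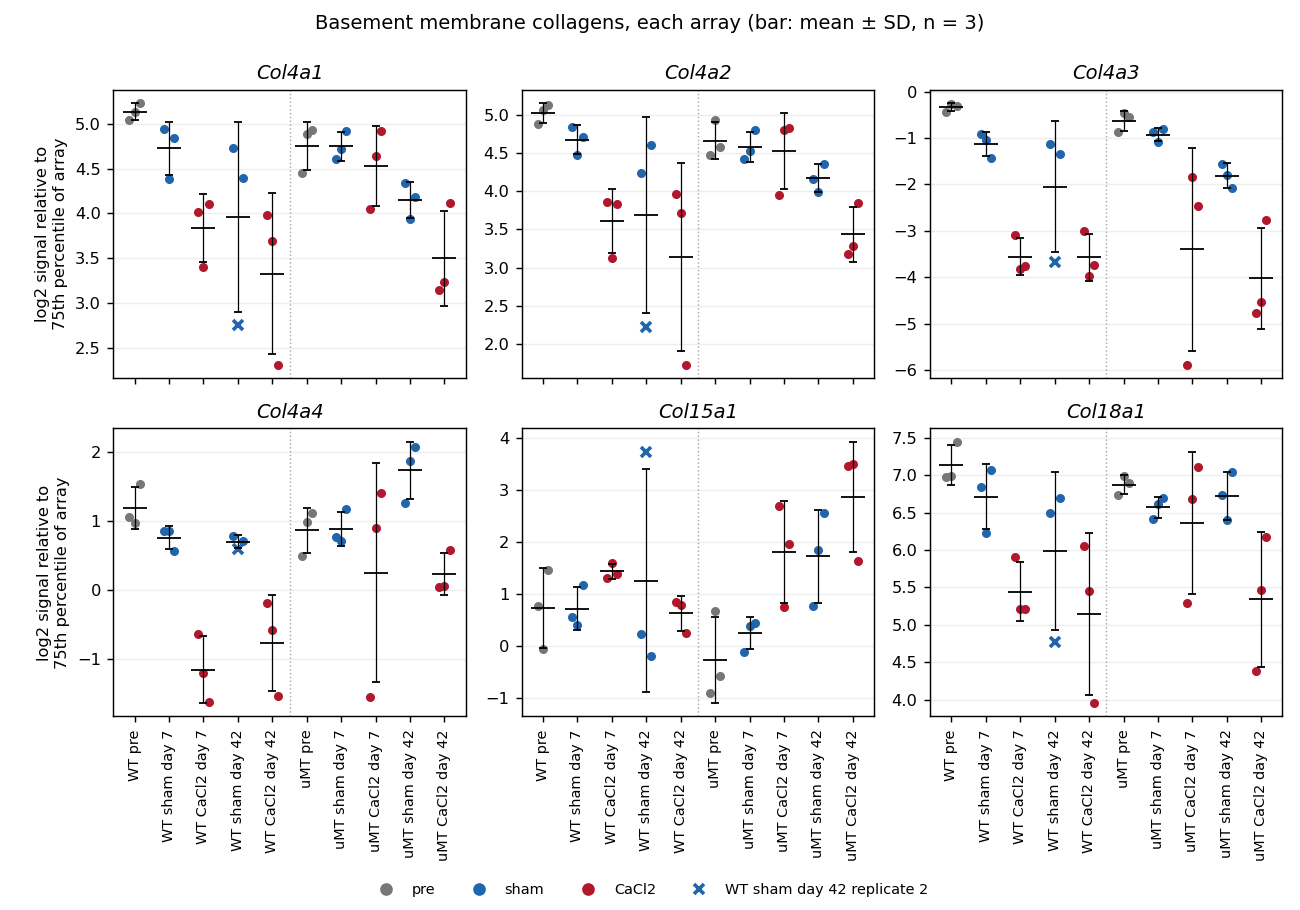
Level of 6 basement membrane genes on each of the 30 arrays (points; log2 processed signal minus that of the 75th percentile probe) with the group mean as a line and the SD as a bar, WT sham day 42 replicate 2 as a cross, by condition, WT and uMT side by side. For Col4a4 and Col4a3 in WT all CaCl2 day 7 arrays lie below all sham day 7 arrays, and for Col15a1 the WT sham day 42 array at 3.73 lies apart.

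Cell type markers moved in the same comparisons, and their part in the collagen changes was not tested. Of the 8 contractile smooth muscle markers 7 fell in WT at day 7 and 6 in WT at day 42, with 0 and 2 in uMT. Leaving out the array that stands apart made them 8, 6, 0 and 5, and slide as a random block left 0 in all 4 comparisons. The log2 of their mean level ran from 7.96 to 8.30 on WT sham day 7 arrays and from 5.82 to 6.87 with CaCl2, and from 8.53 to 9.68 against 6.62 to 7.43 at day 42. In uMT it ran from 7.91 to 7.95 against 5.62 to 8.46 at day 7 and from 8.37 to 9.32 against 6.60 to 7.83 at day 42. Of the 8 fibroblast markers, Lum alone rose in WT at day 42 and Lum, Dpt and Pdgfra in uMT at day 42, with none at day 7 (1 and 5 at day 42 without that array, and 1 and 0 with the random block). Their mean level was 7.17 to 7.31 against 7.21 to 7.36 in WT at day 7, 6.50 to 7.58 against 7.39 to 7.88 in WT at day 42, 7.18 to 7.25 against 7.06 to 7.47 in uMT at day 7, and 5.19 to 6.61 against 6.96 to 7.49 in uMT at day 42.

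Of 7 tested chondrocyte markers 2 rose in each of the 4 comparisons. Without WT sham day 42 replicate 2 these were 3, 3, 2 and 2, and with slide as a random block 0 in all 4. Sox9, the transcription factor of the cartilage program, rose in all 4, by 2.63 ± 0.62 (adjusted p = 0.0135) in WT at day 7 and by 2.65 ± 0.62 (adjusted p = 0.0451) in uMT at day 7. At day 42 it was at least 2.80-fold higher in WT and at least 3.33-fold higher in uMT. With it rose Matn3 at day 7 and Comp, which binds collagen, at day 42 in each genotype, while Hapln1 fell by 2.97 in WT at day 7. The list's mean level overlapped between sham and CaCl2 arrays in all comparisons except uMT at day 7 (3.19 to 3.36 against 3.61 to 4.64). No more than 2 of the 7 were below background on all arrays of any group.

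The macrophage markers rose in 1, 6, 0 and 3 of 8 in WT at days 7 and 42 and uMT at days 7 and 42, in 2, 3, 0 and 7 without WT sham day 42 replicate 2, and in 0, 1, 0 and 0 with slide as a random block. Their mean level was 4.79 to 5.03 against 5.14 to 5.46 in WT at day 7, 4.74 to 5.14 against 5.02 to 5.47 in WT at day 42, 4.44 to 4.87 against 5.04 to 5.82 in uMT at day 7, and 5.51 to 6.41 against 5.86 to 6.45 in uMT at day 42. Of 7 endothelial markers Pecam1 fell in both genotypes at day 42 and Vwf in uMT at day 42, and none was called in WT without that array. Of 5 tested skeletal muscle markers Ckm fell in WT at day 42, and without that array 1 fell in each comparison and 1 rose in uMT at day 42. No marker of either list was called with slide as a random block. The skeletal muscle mean level was 3.11 to 3.56 against 0.53 to 1.44 in WT at day 7.

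Of 29 tested genes that make and process collagen, 1 rose and 3 fell in WT at day 7 (6.59% of all genes called), 1 rose and 2 fell in WT at day 42 (10.4%), 1 rose and 1 fell in uMT at day 7 (0.894%), and 0 rose and 2 fell in uMT at day 42 (6.33%). Without WT sham day 42 replicate 2, 3, 1, 3 and 5 rose and 7, 2, 1 and 3 fell. With slide as a random block, 1 rose and 1 fell in WT at day 42 and 0 were called in the other 3. Fkbp10, a chaperone that assists lysyl hydroxylation of collagen telopeptides, rose by 0.96 ± 0.27 in WT (adjusted p = 0.0354) and by 1.37 ± 0.27 in uMT (adjusted p = 0.0222) at day 7. Bmp1, the procollagen C-proteinase, rose by 0.98 ± 0.20 in WT at day 42. Falls were those of P3h2, a prolyl 3-hydroxylase that acts on type IV collagen (-1.60 and -2.35 in WT, -1.46 in uMT at day 42), Pcolce2, an enhancer of C-proteinase (-2.50 in WT and -2.39 in uMT at day 7, -1.41 in uMT at day 42), Adamts14 (-1.02, WT day 7) and Plod1 (-0.89, WT day 42). The list medians were -0.14, 0.11, 0.17 and 0.09, and the second was -0.21 without that array.

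All 7 collagen-degrading genes had a change above 0 in each of the 4 comparisons, and 4, 4, 1 and 3 were called (5, 3, 3 and 5 without WT sham day 42 replicate 2, and 0, 2, 0 and 0 with slide as a random block). Mmp14, a membrane-bound collagenase, rose in all 4, by 1.91 ± 0.33 (adjusted p = 0.00275) and 1.40 ± 0.33 (adjusted p = 0.00892) in WT and by 1.48 ± 0.33 (adjusted p = 0.038) and 2.11 ± 0.33 (adjusted p = 0.000493) in uMT. Fap, a protease of activated fibroblasts, rose by 1.24 in WT at day 7, by 2.07 in WT at day 42 and by 2.74 in uMT at day 42. Mmp13, the collagenase 3, rose by 5.65 ± 1.23 in WT at day 7 and was at least 29.3-fold higher in uMT at day 42. Of 9 receptors 3, 3, 1 and 2 rose (4, 2, 2 and 3 without WT sham day 42 replicate 2, and 0 in all 4 with slide as a random block). Among them Mrc2, which takes collagen up into cells, rose in all 4 comparisons, by 1.14, 1.32, 1.86 and 1.53. Lair1, an inhibitory receptor of leukocytes, rose in 3 of 4 (1.13 and 1.32 in WT, 1.60 in uMT at day 42), Itga2 rose by 1.56 in WT at day 7 and Itga11 by 2.53 in WT at day 42. Falls in WT were those of Ddr2 at day 7 (-0.95) and Itgb1 at day 42 (-1.87). The receptors' mean level ran from 2.85 to 4.93 on WT sham day 42 arrays, 2.62 to 3.13 with CaCl2 and 2.74 to 3.08 on WT pre arrays. The change of Itgb1 without WT sham day 42 replicate 2 is not given, so whether its fall at day 42 rests on that array is not known here.

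Whether the collagen response differed between WT and uMT was asked by the difference of the CaCl2 changes, uMT minus WT. The uMT sham and CaCl2 arrays lie on slides that hold no WT array. Slide and genotype therefore cannot be told apart in these differences, or in the average of uMT against WT below. No collagen gene passed at either day in limma. At day 7 the differences ran from -2.26 (Col6a5) to 2.09 (Col19a1), 13 of 37 below 0. Of all 37, 1 had an unadjusted p under 0.05 (0 and 4.22% of all genes at the adjusted and unadjusted thresholds), and 6 were called with array weights. At day 42 they ran from -1.91 (Col23a1) to 1.77 (Col15a1), 19 of 37 below 0. There 2 had an unadjusted p under 0.05 (0.107% of all genes were called, 5.66% unadjusted), and 1 was called with array weights. No share of all genes is given for array weights, so the counts with them are no result about collagen genes. For Col1a1 the day 42 difference was -0.41 ± 0.46 and for Col3a1 0.30 ± 0.32, and for Col11a1 it was -0.52 ± 0.94 at day 7. No size is given for Col11a1 at day 42, where its probe was above background on none of the sham arrays of either genotype. Leaving out WT sham day 42 replicate 2 or adding slide as a random block gave 0 calls at both days (0% of all genes at day 7; 0.447% and 0% at day 42). Averaged over the 5 conditions 1 collagen gene, Col6a4, was called between genotypes, against 2.97% of all genes. This type VI gene was above background on none of the uMT arrays and passed the filter through WT sham day 7 and WT CaCl2 day 7 alone, so no size of difference is given and the call is not independent of the filter. It was not called with slide as a random block (0 of 37 members, 0.0086% of all genes). Leaving out WT sham day 42 replicate 2 gave 4 calls (25.9% of all genes), as did leaving out uMT CaCl2 day 7 replicate 1.

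The change from day 7 to day 42 after CaCl2 was measured within 1 slide in each genotype. Most members read lower at day 42, with a median of -0.45 in WT (9 of 37 above 0) and -0.48 in uMT (9 of 37 above 0), against 0.00 and -0.05 for all genes. In WT none of 37 was called by limma on its brightest kept probe (0.55% of all genes), and 14 had an unadjusted p under 0.05 (6.07% of all genes). A second Col22a1 probe was higher at day 42 there, at 2.38 ± 0.44 (adjusted p over all kept probes = 0.00802), while the brightest changed by -0.19. Leaving out WT sham day 42 replicate 2, which is in neither group, gave 3 calls (0.971% of all genes): Col16a1 at -1.09, Col20a1 at 1.43 and Col24a1, lower. The Col24a1 probe was above background on all 3 arrays of only 2 groups, so no size is given for it. A random block for slide gave 2, Col20a1 and Col24a1 (1.04% of all genes), and 2 were called without CaCl2 day 42 replicate 2. In uMT 2 were called by their brightest kept probe, against 0.971% of all genes.

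Col20a1 was the one that rose, by 1.90 ± 0.35 (adjusted p = 0.00586), from -2.45, -1.5 and -1.87 at day 7 to -0.16, 0.14 and -0.11 at day 42. Col5a1 fell by 1.65 ± 0.35 (adjusted p = 0.0165), from 6.16, 5.36 and 5.28 to 4.13, 4.04 and 3.67. Neither pair of groups overlapped. Leaving out WT sham day 42 replicate 2 gave 6 calls (8.27% of all genes), adding Col2a1, higher, and Col9a2, Col12a1 and Col16a1 at -1.45, -1.82 and -1.15. Col2a1 passed the filter through CaCl2 groups alone, with uMT CaCl2 day 42 but not uMT CaCl2 day 7 among them. Its call here is therefore not independent of the filter, and no size is given. The random block for slide gave the same 6 genes (4.8% of all genes), and 1 was called without any of the uMT CaCl2 day 42 replicates. By a second probe, Col22a1 was higher at day 42 at 3.27 ± 0.44 and Col6a5 at 2.73 ± 0.50 (adjusted p over all kept probes = 0.000576 and 0.00629). Their brightest probes changed by 0.23 and 2.14 and were not called.

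The sham operation itself moved a few members. In WT at day 7 after saline, Col3a1 alone was higher than in pre aortas, by 0.94 ± 0.23 (adjusted p = 0.0211), with 2.37% of all genes called and both groups on 1 slide. Its pre arrays read 7.84, 7.68 and 8.06 and its sham day 7 arrays 8.73, 8.73 and 8.95. In uMT Col3a1 rose by 0.85 ± 0.23 (adjusted p = 0.0442), Col5a3 by 2.35 ± 0.62 (adjusted p = 0.0442) and Col6a5 by 3.15 ± 0.85 (adjusted p = 0.0469), with 2.54% of all genes called. When WT sham day 42 replicate 2 was left out, 5 rose in WT (4.1% of all genes), Col3a1, Col5a3, Col14a1, Col16a1 and Col24a1, and 6 were called in uMT (12.9%). A random block for slide gave 4 in WT (3.99%) and 5 in uMT (4.13%). Without any single array of the WT comparison 0 were called, except for pre replicate 3, and in uMT 0 were called without pre replicate 1 or 2 or any sham array.

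By day 42 the sham aortas of WT held no collagen gene called against pre (0.168% of all genes). An unadjusted p under 0.05 was reached by 13 of 37 (23.2% of all genes), and leaving out the array that stands apart or blocking on slide also gave 0 calls (0.211% and 0.133%). With sham replicate 1 or 3 left out, and the array that stands apart kept, 9 and 11 were called. In uMT, Col20a1 rose by 1.18 (adjusted p = 0.0234) against 17.4% of all genes, 0 were called without pre replicate 1 or without sham replicate 2, and 3 without sham replicate 1. Leaving out WT sham day 42 replicate 2 gave 6 calls there (40.3% of all genes), among them Col3a1 at -0.60 and Col1a2 at -0.78, and a random block for slide gave 4 (26%). The fibrillar median against pre was 0.66 and 0.78 at sham day 7 and -0.71 and -0.11 at sham day 42 in WT and uMT.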

How the data were processed

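Members and gene lists were chosen with earlier results of these data known, so no list is independent evidence. The deposited scanner values are spot intensity, which per the file headers was made with Agilent Feature Extraction 10.7.1.1 (the submitters' processing notes name 9.5.1.1), with background subtraction, detrending and a surrogate for dim spots. Records differ on the RNA purification kit. The authors also deposited a table of linear processed intensity whose columns share 1 distribution and follow their own arrays, which served as an alternative.

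Intensities of unflagged spots were averaged per probe, divided by the array's 75th percentile and put on the log2 scale. Probes well above background on all 3 arrays of at least 1 group were kept (33228 of 55657), and each gene was read from its brightest kept probe. Names came from probe accessions in the RefSeq table (62 of 68 member probes) or the file, and the 68 names were equal in both. Probe positions are mm9, promoters GRCm38.p6. Precision is limited by 3 arrays a group and by signal over background, and no spot was saturated.

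Limma 3.58.1 in R 4.3.3 was fitted to all 30 arrays with a mean for each group, leaving 20 residual degrees of freedom, and was tested on simulated data. Where the dimmer group was below background on all its arrays, "at least" folds take, per array, its lowest signal above background or the measured value, whichever is higher. Members named are those called in a comparison of CaCl2 with sham or of the days after CaCl2, plus Col1a1, Col1a2, Col3a1, Col5a1, Col4a1, Col4a2, Col15a1, Col18a1, Col8a1, Col6a3, Col12a1 and Col14a1, and up to 4 called genes of each other list. Replicate numbers did not pair the samples. Alternatives covered scaling, background correction, filter, probe choice, slide, array weights, groups in the fit and each array left out.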

Additional observations from a re-analysis of the deposited data

How the results depend on the processing

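Counts of collagen genes called, of 37, follow by setting, for CaCl2 against sham unless stated. For most settings here, and for most single arrays left out above, no share of all genes is given. Such a count shows how far the calls depend on the setting and is no result about collagen genes. Array weights gave WT sham day 42 replicate 2 a weight of 0.000339, close to leaving it out. Quantile normalization and the authors' values each gave 7 in WT day 7, 2 in uMT day 7 and 2 for day 42 against day 7 in WT. No filter gave 6 and 1 at day 7 in WT and uMT, and 0 for sham day 7 against pre in both. Array weights gave 29, 21 and 26 (WT day 7, uMT days 7 and 42), 6 and 1 for the genotype difference at days 7 and 42, 12 and 15 for the days after CaCl2 (WT, uMT), 14, 1, 6 and 4 for sham against pre (WT days 7 and 42, uMT days 7 and 42) and 9 for the average of uMT against WT. Fitting only the groups compared gave 26, 0 and 0 (WT days 7 and 42, uMT day 7), 1 and 0 for the days after CaCl2, and 11 and 5 for sham day 7 against pre. Slide as a random block gave 1, 9, 0 and 0 for CaCl2, 2 and 6 for the days after it, 4, 5 and 4 for sham against pre (WT day 7, uMT days 7 and 42) and 0 for the average. Slide as a fixed term gave 0 in WT day 7, 1 and 6 for the days after CaCl2 and 4 and 6 for sham against pre (WT day 7, uMT day 42). It could not be fitted for uMT CaCl2 against sham or the genotype differences. In WT day 42 it rests on 1 sham array, so no count is given. The random block without WT sham day 42 replicate 2 gave 23, 22 and 25 (WT day 7, uMT days 7 and 42), 3 and 6 for the days after CaCl2, 5, 6 and 6 for sham against pre (WT day 7, uMT days 7 and 42) and 8 for the average; the slide correlation was 0.782 with that array and -0.0687 without it. Normexp with quantile normalization gave 7 in uMT day 7, 2 for the days in WT, and 5 and 3 for uMT sham against pre. The mean of a gene's probes gave 1 and 4 for the days after CaCl2 and 3, 5 and 2 for sham against pre. The percentile over detected probes gave 6 and 3 for uMT sham against pre. It moved the median of all genes by 0.11 for the days in uMT, and by 0.17 and 0.32 for uMT sham against pre at days 7 and 42. The share of rises among all calls went from 58.6% to 79.7% in uMT sham day 7 against pre, and from 41.9% to 72.5% at day 42. The filter of 15 arrays gave 0 for the average. The replicate block gave 1 in uMT day 7, 1 for the days in WT, and 2 and 0 for sham day 7 against pre in WT and uMT; deviations of same-numbered arrays correlated from -0.378 to 0.211. Leaving out 1 array gave 2 to 17 (12 with all arrays) in WT day 7, 9 to 18 (15) in WT day 42, 1 to 12 (4) in uMT day 7, 6 to 22 (13) in uMT day 42, 0 to 0 for the genotype differences, 0 to 3 and 1 to 6 for the days after CaCl2, 0 to 5, 0 to 11, 0 to 6 and 0 to 6 for sham against pre, and 1 to 4 for the average. Where this left an arm of 2, its spread was taken from all groups. For the 52 called gene results, 724 of 1025 alternatives held the call, 301 lost it and 0 reversed it, and the cause of each change was not tested.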

Other observations

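Several members are measured by more than 1 kept probe, 14 genes in all. Over the 4 comparisons of CaCl2 with sham, 9 of their 56 sets of changes held both signs, in 7 genes.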
